A study of Mus musculus with 24 samples.

Results

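The 10 genes described here act upstream of NF-kB: Ikbkb, Chuk and Ikbkg, which encode the IKK complex; Traf1, Traf2, Traf3 and Traf6, which encode TRAF adaptors; Birc2 and Birc3, which encode the ubiquitin ligases cIAP1 and cIAP2; and Tnfaip3, which encodes the ubiquitin-editing inhibitor A20. They were chosen by name, and each was measured by its promoter peaks of H3K9ac, that is histone H3 acetylated at lysine 9, a mark found at active promoters. A promoter was the region within 1000 bp of any annotated transcription start site (TSS). All 10 were among the 10777 genes, of 21755 protein-coding genes examined, that had a promoter peak in all 12 libraries.

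H3K9ac was profiled by ChIPmentation, in which the transposase Tn5 tags immunoprecipitated chromatin, in spheroids grown from 4T1, a line of mouse mammary carcinoma cells. The 4 groups held 3 libraries each. These were control cells labelled scramble, CPT1a knockout cells, CPT1a knockout cells given 5 mM acetate, and KAT2a knockout cells, all collected on day 5. CPT1a brings long-chain fatty acids into mitochondria, where their oxidation yields acetyl-CoA, and KAT2a is a histone acetyltransferase. Scramble, CPT1a knockout and KAT2a knockout spheroids grew with 75 µM palmitate, while for the acetate group the labels name no palmitate and do not state its absence. A figure legend of the study describes its H3K9ac comparison with and without acetate as made with palmitate present. Per the study's methods, every line carried an inducible Cas9 and a guide selected with puromycin, the control guide was directed at EGFP, and 2 guides were made per gene. Which of these guides was used in a given library is not labelled. The replicates are labelled only by number, so the p-values measure the spread between these libraries, which may be technical. Peak lists do not report expression, so the knockouts were not checked in them.

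NF-kB transcription factors are held in the cytoplasm by inhibitory IkB proteins until a receptor of the TNF, interleukin-1 or Toll-like family is engaged. TRAF adaptors and cIAP ligases then build ubiquitin chains that recruit and activate the IKK complex, in which IKK-alpha and IKK-beta are kinases and NEMO is the regulatory subunit, and IKK-beta phosphorylates IkB for degradation. In a second, noncanonical branch, TRAF2, TRAF3 and the cIAPs keep the kinase NIK low, and IKK-alpha processes p100 once NIK accumulates. A20 removes and edits ubiquitin chains and thereby ends the signal. Tnfaip3, Birc3 and Traf1 are themselves known NF-kB target genes.

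All 10 promoters carried a called peak in 12 of 12 libraries, which is 120 of 120 gene-library pairs. This count remained 120 with a window of 500 bp, with the summit required inside the window, at a -log10 q of at least 5, and at equal calling depth. The members therefore differed in how their peaks ranked and how far they extended, and not in whether a peak was present. Of the marker genes, all 5 epithelial genes (Epcam, Krt8, Krt18, Krt19 and Cdh1) had a promoter peak in 12 of 12 libraries. The leukocyte genes Ptprc and Cd3e, the endothelial genes Pecam1 and Cdh5, the fibroblast gene Dcn and the hepatocyte gene Alb had a promoter peak in 0 of 12 libraries, whereas Pdgfra, listed as a fibroblast gene, had one in 12 of 12.

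The libraries differed in depth. Calling depth, the mean fragment coverage at which a list was called, was recovered from the fold enrichment and p of the peaks and lay between 1.871 and 2.516 in scramble and between 0.554 and 1.909 in the other groups. CPT1a knockout replicate 3 (0.554) and CPT1a knockout with acetate replicate 2 (0.660) were the shallowest. Scramble lists held 29176 to 34370 peaks and the other lists 16212 to 24639. The median summed length of promoter peaks per gene was 2743 to 3411 bp in scramble and 1658 to 2566 bp elsewhere. For these reasons fold enrichments were compared only as ranks within a library, from 0 for the weakest to 100 for the strongest of the 10777 promoters, and lengths only relative to the library median. Scramble enters 3 of the 4 comparisons, so these share their controls and are not independent of each other.

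The promoters on which the results turn are shown from RefSeq (GRCm38.p6), which held an entry for 9 of the 10 members, all but Ikbkb. Each sequence is the part of the 250 bases before the RefSeq start that no annotated exon covers, written 5′ to 3′ on the strand of the gene. Capitals mark matches to GGGNNTTTC, a core of NF-kB sites, or to GGGCGG, the GC box, on either strand. Tnfaip3 is shown because its rank was lowest relative to scramble, Chuk because its peak was shorter, Traf3 because its rank was steady and its promoter holds an NF-kB type match, and Birc3 because it ranked last.
Tnfaip3 (chr10:19015411-19015547, minus strand): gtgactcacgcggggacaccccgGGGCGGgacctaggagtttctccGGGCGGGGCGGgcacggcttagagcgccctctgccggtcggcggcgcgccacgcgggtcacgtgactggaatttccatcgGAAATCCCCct
Chuk (chr19:44107481-44107727, minus strand): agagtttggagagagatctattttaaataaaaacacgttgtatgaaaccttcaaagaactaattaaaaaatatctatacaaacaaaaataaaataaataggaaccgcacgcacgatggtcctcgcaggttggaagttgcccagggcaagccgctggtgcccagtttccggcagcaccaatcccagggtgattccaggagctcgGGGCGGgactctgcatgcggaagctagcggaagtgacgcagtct
Traf3 (chr12:111166120-111166369, plus strand): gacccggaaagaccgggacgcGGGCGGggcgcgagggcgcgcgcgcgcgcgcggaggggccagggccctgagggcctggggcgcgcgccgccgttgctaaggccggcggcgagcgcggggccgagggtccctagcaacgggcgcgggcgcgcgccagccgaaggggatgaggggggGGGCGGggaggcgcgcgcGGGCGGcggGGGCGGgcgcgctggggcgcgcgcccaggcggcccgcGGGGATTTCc
Birc3 (chr9:7873187-7873420, minus strand): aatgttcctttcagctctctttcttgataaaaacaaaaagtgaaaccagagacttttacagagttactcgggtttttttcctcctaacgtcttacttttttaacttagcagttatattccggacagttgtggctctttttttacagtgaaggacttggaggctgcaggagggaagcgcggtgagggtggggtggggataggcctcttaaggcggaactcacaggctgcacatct

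These windows did not all lie under the strongest H3K9ac promoter peak. It touched the Chuk and Birc3 windows in 12 libraries, the Tnfaip3 window in 10 and the Traf3 window in 8. The strongest promoter peak covered all of the Chuk window in 11 of 12 libraries, the Birc3 window in 11, the Tnfaip3 window in 7 and the Traf3 window in 3, where the summits lay downstream of the start. Their GC content was 70.8% for Tnfaip3, 47.0% for Chuk, 85.2% for Traf3 and 44.9% for Birc3. Over the full 250 bases of the entry nearest the main start, GGGNNTTTC was found in 2 of 9 members (Tnfaip3 and Traf3) and in 3.72% of 32851 RefSeq promoters. Tnfaip3 held matches at positions -148 to -140 and -11 to -3 from the RefSeq start, the first of them within an annotated exon and not printed above, and Traf3 held a match at -10 to -2. GGGCGG was found in 6 of 9 members and in 32.7% of all promoters, and the 3 matches of Tnfaip3 include a pair that shares a base. The cyclic AMP response element TGACGTCA was in 0 of 9 (1.55% of all promoters), although a second Birc2 entry held it at -35 to -28, and TATAAA in 1 of 9, Tnfaip3 (12.4%). A match is a string of letters and not evidence of binding.

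The members spanned most of the range of promoter strength. Averaged over the 12 libraries, rank was highest for Chuk (89.6 ± 13.9, SD, n = 12), Birc2 (86.3 ± 14.8) and Traf3 (81.9 ± 7.10), and lowest for Ikbkb (46.1 ± 17.5) and Birc3 (14.0 ± 6.76). In scramble the order was Traf3, Chuk, Tnfaip3, Birc2, Ikbkg, Traf2, Traf1, Traf6, Ikbkb, Birc3. Of the 9 neighbouring pairs in this order, 8 had ranges that overlapped, and only Traf6 and Ikbkb stood apart. The median of the members' mean ranks was 71.6 in scramble and 52.9 in CPT1a knockout. It was 58.5 once acetate was added and 62.2 for KAT2a knockout, and for all genes it was 50.5 to 51.0. The spread of rank over the 12 libraries was widest for Tnfaip3, with an SD of 25.1, which exceeded that of 97.1% of all genes. It was narrowest for Birc3 (SD 6.76) and Traf3 (SD 7.10), the latter above that of 13.1% of all genes. The plot of ranks by library shows all 120 values.

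**Figure D1:**
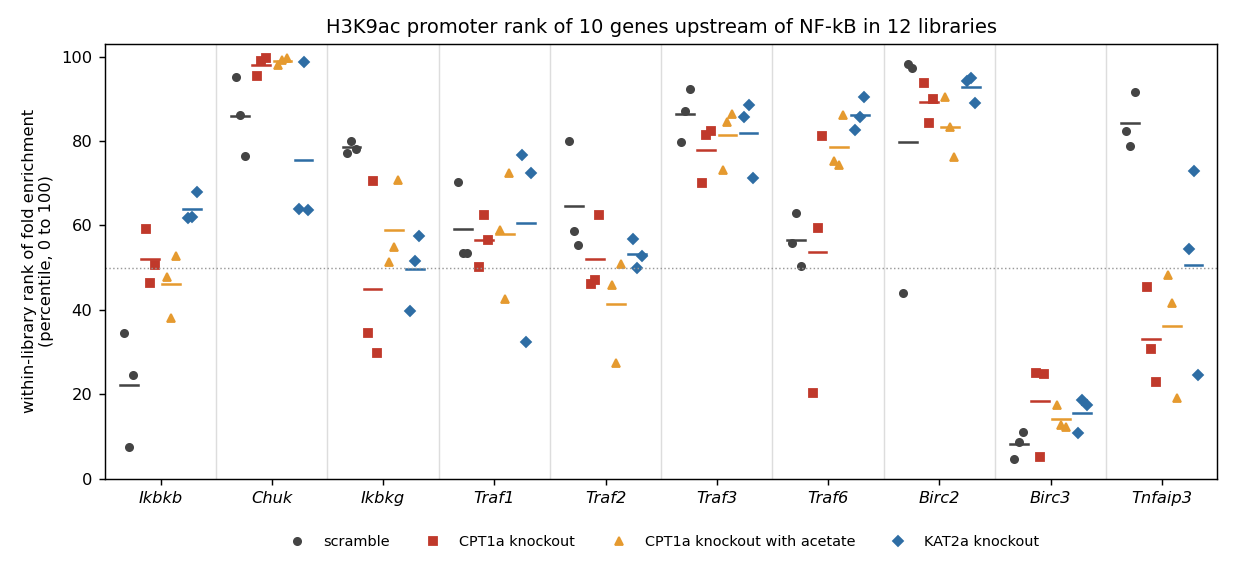
Within-library rank of the fold enrichment of the strongest promoter peak (percentile, vertical axis) for the 10 genes (horizontal axis). Each symbol is 1 library, the short bars are group means (n = 3), and the dotted line marks rank 50; the scramble libraries of Tnfaip3 lie at 78.9 to 91.7 and those of Ikbkb at 7.47 to 34.4.

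Tnfaip3 (ENSMUSG00000019850.11, chr10:19000910-19015657, minus strand) encodes A20, the inhibitor that shuts down IKK activation. Its promoter ranked at 82.4, 78.9 and 91.7 in the 3 scramble libraries. It ranked at 45.3, 30.8 and 23.0 in CPT1a knockout, at 48.1, 41.6 and 19.1 with acetate added, and at 54.5, 72.8 and 24.6 in KAT2a knockout. Every library of the other 3 groups therefore lay below every scramble library, and acetate did not bring the rank back to that range. KAT2a knockout replicate 2 came nearest to scramble.

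In CPT1a knockout, mean rank was lower than in scramble by 51.3 percentile points (33.0 ± 11.3 against 84.3 ± 6.59, SD, n = 3 each), and the difference of -51.3 (SE 12.8) passed the test (adjusted p = 0.0221, limma with Benjamini-Hochberg adjustment over 10777 genes). Tnfaip3 was the only member called in this comparison, that is 1 of 10, where 10.0% of all genes were called. At equal calling depth the difference was -50.6 (limma adjusted p = 0.00592). The call was lost when scramble replicate 1 or 3 or CPT1a knockout replicate 2 or 3 was left out (limma adjusted p between 0.0520 and 0.0771, difference -45.9 to -52.3). In CPT1a knockout with acetate, the rank was 36.3 ± 15.3, and the difference to scramble of -48.1 (SE 12.8) passed as well (limma adjusted p = 0.0413). It missed the threshold once the trend with GC content was removed (limma adjusted p = 0.0597), and it was lost when any 1 library of scramble or of the acetate group, CPT1a knockout replicate 2 or KAT2a knockout replicate 1 was left out (limma adjusted p up to 0.148). In KAT2a knockout, the rank was 50.6 ± 24.3, and the difference of -33.7 (SE 12.8) did not pass (limma adjusted p = 0.147). By pileup this difference was -31.8 and passed (limma adjusted p = 0.00363).

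Peaks over Tnfaip3 were long. Summed over its 3 promoter windows, they covered 8108, 6951 and 7416 bp in scramble, 6642, 6810 and 3463 bp in CPT1a knockout, 6721, 5115 and 6123 bp with acetate added, and 6979, 7620 and 6724 bp in KAT2a knockout. Relative to the library median, none of these differences passed the test (limma adjusted p = 0.584 in CPT1a knockout, 0.154 in KAT2a knockout, and 0.713 with acetate). With peaks less than 500 bp apart joined, the relative length was greater than in scramble by 0.35 in CPT1a knockout (limma adjusted p = 0.0186) and by 0.36 in KAT2a knockout (limma adjusted p = 0.0223). In CPT1a knockout the relative length differed by 0.11 on the log2 scale, with a 95% interval of -0.17 to 0.38. The strongest Tnfaip3 summit lay 185 to 741 bp downstream of the nearest start in all 12 libraries, but which start was nearest differed between libraries. From the start at position 19015376, it lay 1179, 1173 and 1535 bp downstream in scramble and 287, 321 and 316 bp in CPT1a knockout. It lay 282, 979 and 268 bp downstream with acetate and 294, 1001 and 285 bp in KAT2a knockout. The genes whose rank pattern over the 12 libraries was most like that of Tnfaip3 were Mrpl35 (Pearson r = 0.930), Ttc37 (r = 0.916) and Arsk (r = 0.916), out of 10776 searched. Among members, r with Tnfaip3 ran from -0.589 for Ikbkb to 0.445 for Ikbkg. These correlations describe 12 libraries that share groups and depth.

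**Figure D2:**
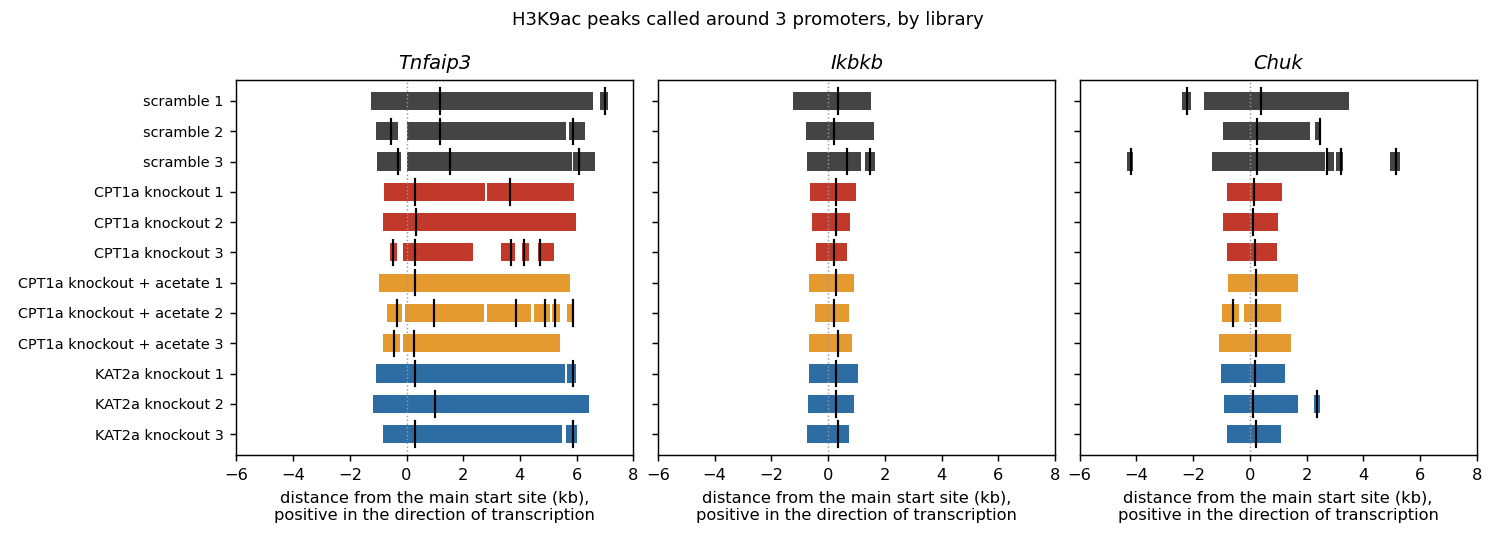
H3K9ac peaks as called in each library (boxes, 1 row per library) around the main start site of Tnfaip3, Ikbkb and Chuk, against the distance in kb from that start in the direction of transcription; black ticks mark summits. The Tnfaip3 peaks run for several kb into the gene in every library, and the scramble peaks of Chuk (3065 to 5113 bp in all) extend beyond those of CPT1a knockout (1766 to 1945 bp).

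Ikbkb (ENSMUSG00000031537.15, chr8:22659212-22706589, minus strand) encodes IKK-beta, the kinase that marks IkB for degradation. It ranked at 34.4, 7.47 and 24.5 in scramble. It ranked at 59.2, 46.5 and 50.6 in CPT1a knockout, at 47.8, 38.1 and 52.7 with acetate, and at 61.7, 62.0 and 68.0 in KAT2a knockout. All 9 libraries of the other groups were above the highest scramble library, which is the opposite side from Tnfaip3.

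In KAT2a knockout, the Ikbkb rank was higher by 41.7 points (63.9 ± 3.55 against 22.1 ± 13.6, SE of the difference 9.74), and this passed the test (limma adjusted p = 0.0275). It was the only call among the 10 members, where 4.41% of all genes were called. The difference was 43.6 at equal calling depth (limma adjusted p = 0.00873). The call was lost when scramble replicate 2 or 3 or any 1 KAT2a knockout library was left out (limma adjusted p between 0.0694 and 0.0887). In CPT1a knockout the difference of 30.0 (SE 9.74) missed the threshold (limma adjusted p = 0.0640), although it passed at equal calling depth (32.1, limma adjusted p = 0.0223), with GC content removed (33.0, limma adjusted p = 0.0425) and as normal scores (limma adjusted p = 0.0466). With acetate against scramble it was 24.0 (limma adjusted p = 0.160), and by pileup 29.7, which passed (limma adjusted p = 0.00211). The recovered local background at the Ikbkb summit was 3.26, 5.52 and 2.83 fragments in scramble and 1.00 to 3.00 fragments elsewhere. It is not scaled for depth, and calling depth was 2.516, 1.871 and 1.9 in those scramble libraries and 0.554 to 1.909 elsewhere. Scramble replicate 2, with the highest background, had the lowest rank. Without that library the KAT2a difference was 34.4. Its promoter peaks covered 1905 to 2739 bp in scramble, 1090 to 1637 bp in CPT1a knockout, 1187 to 1596 bp with acetate and 1477 to 1921 bp in KAT2a knockout, and no relative length passed the test.

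Chuk (ENSMUSG00000025199.16, chr19:44073335-44107480, minus strand) encodes IKK-alpha, the kinase of the noncanonical branch. It ranked at 95.1, 86.2 and 76.4 in scramble, at 95.5, 99.0 and 99.6 in CPT1a knockout, at 98.0, 99.2 and 99.7 with acetate, and at 63.8, 98.7 and 63.7 in KAT2a knockout. The 6 CPT1a knockout libraries with or without acetate lay above the scramble libraries, whereas the KAT2a knockout libraries fell on both sides of them. No rank difference passed the test: it was 12.1 (95% interval -5.78 to 30.0), 13.0 (-4.87 to 31.0) and -10.5 (-28.4 to 7.44) against scramble in CPT1a knockout, the acetate group and KAT2a knockout. The first passed by -log10 p (8.61, limma adjusted p = 0.0496), and by pileup all 3 passed, each above scramble (8.02, 7.93 and 6.87). The KAT2a knockout difference was -22.1 without replicate 2, -4.67 without replicate 1 and -4.64 without replicate 3. The local background at Chuk was 3.41 and 3.00 fragments in KAT2a knockout replicates 1 and 3, which ranked low, and 1.81 in replicate 2, which ranked high.

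Relative to the library median, Chuk was the only member whose peak length passed the test. Without that centring every member was shorter in CPT1a knockout, 6 of them past the test. Its promoter peaks covered 5113, 3065 and 4252 bp in scramble. They covered 1945, 1945 and 1766 bp in CPT1a knockout, 2470, 1936 and 2523 bp with acetate, and 2229, 2638 and 1908 bp in KAT2a knockout. Every library of the other groups was below every scramble library. Relative to the library median on the log2 scale, length was lower by 0.53 in CPT1a knockout (difference -0.53, SE 0.12, limma adjusted p = 0.00895), by 0.51 in KAT2a knockout (difference -0.51, SE 0.12, limma adjusted p = 0.0134) and by 0.42 with acetate (difference -0.42, SE 0.12, limma adjusted p = 0.0304). The call in CPT1a knockout held with each of the 12 libraries left out in turn (limma adjusted p up to 0.0378). In KAT2a knockout it was lost without scramble replicate 3 or KAT2a knockout replicate 1 (limma adjusted p up to 0.0556), and with acetate it was lost without scramble replicate 1 or 3 or any 1 acetate library (limma adjusted p up to 0.108). Chuk was the only member called by length in each of these comparisons, 1 of 10, where 21.2%, 16.8% and 17.3% of all genes were called in CPT1a knockout, KAT2a knockout and the acetate group against scramble. Outside any promoter window, Chuk had 4, 3 and 5 further peaks in the gene or within 20000 bp in the scramble libraries, but in the other groups 1 peak in KAT2a knockout replicate 2 alone.

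**Figure D3:**
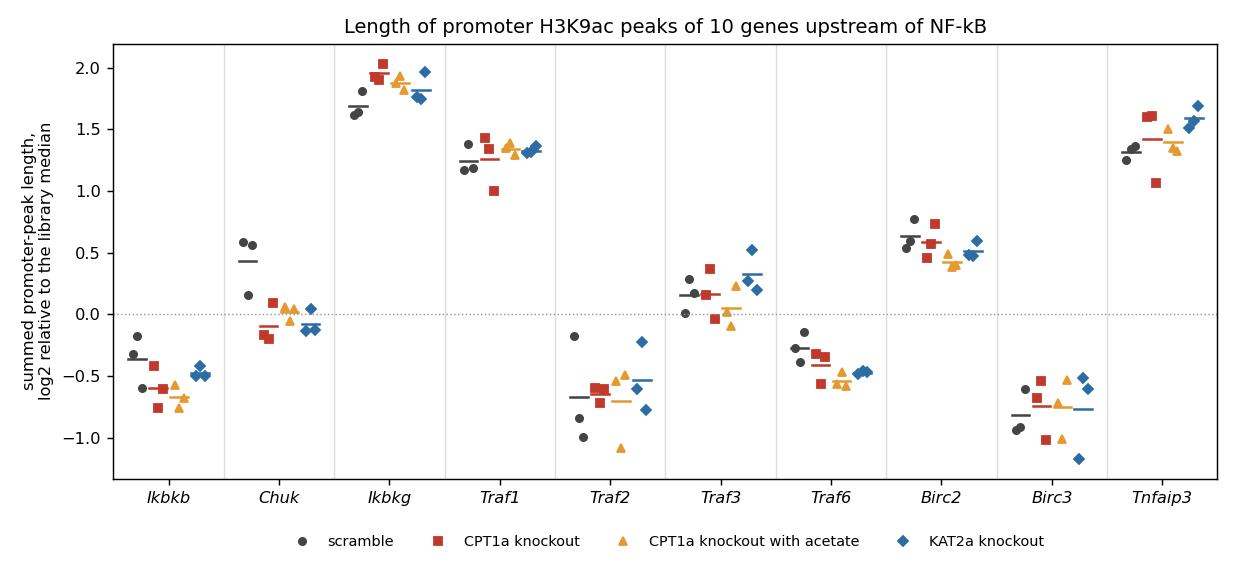
Summed length of the promoter peaks of each gene on the log2 scale relative to the median gene of the same library (vertical axis), for 3 libraries per group; short bars are group means and the dotted line marks the library median. Chuk is the gene whose scramble libraries stand above all others, with group means of 0.43 in scramble and -0.09 in CPT1a knockout. Ikbkg, Traf1 and Tnfaip3 lie highest.

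Ikbkg (ENSMUSG00000004221.16, chrX:74393290-74453854, plus strand) encodes NEMO, the regulatory subunit that binds ubiquitin chains. It ranked at 77.2, 80.1 and 78.2 in scramble, at 34.5, 70.6 and 29.9 in CPT1a knockout, at 51.3, 54.8 and 70.9 with acetate, and at 39.8, 51.5 and 57.6 in KAT2a knockout. All 9 libraries of the other groups were below scramble, yet no difference passed the test: it was -33.5 in CPT1a knockout (limma adjusted p = 0.0830), -28.9 in KAT2a knockout (limma adjusted p = 0.176) and -19.5 with acetate (limma adjusted p = 0.347). By pileup it passed in CPT1a knockout (-19.8, limma adjusted p = 0.0246) and in KAT2a knockout (-27.8, limma adjusted p = 0.00516). The start sites of Fam3a and G6pdx lay under the same promoter peaks in 12 of 12 libraries, so the signal cannot be assigned to Ikbkg. Its strongest peak was at another start site, position 74427902, in CPT1a knockout replicate 1 and KAT2a knockout replicate 1.

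Traf1 (ENSMUSG00000026875.14, chr2:34941750-34961772, minus strand), an adaptor induced by NF-kB, ranked at 53.4 to 70.4 in scramble, 50.2 to 62.6 in CPT1a knockout, 42.6 to 72.5 with acetate and 32.5 to 76.6 in KAT2a knockout. These ranges overlapped. The group means differed from scramble by -2.66, -1.13 and 1.37 points in CPT1a knockout, the acetate group and KAT2a knockout, with 95% intervals that together ran from -29.6 to 28.3. By pileup the CPT1a knockout difference was -17.1 and passed the test (limma adjusted p = 0.0403). Its promoter peaks, 6554 to 7658 bp in scramble, gave no call by length, and Traf1 had 0 peaks outside promoter windows in the gene or within 20000 bp in any library.

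Traf2 (ENSMUSG00000026942.13, chr2:25517982-25546940, minus strand), the adaptor that brings cIAPs to TNF receptors, ranked at 80.0, 58.6 and 55.4 in scramble. It ranked at 46.2, 47.0 and 62.6 in CPT1a knockout, at 46.0, 27.4 and 50.8 with acetate, and at 56.7, 49.9 and 52.9 in KAT2a knockout. The acetate libraries alone lay wholly below scramble, by 23.3 points on average (difference -23.3, SE 10.7), which did not pass the test (limma adjusted p = 0.218). By pileup this difference was -17.3 and passed (limma adjusted p = 0.0421). Traf2 had the most peaks in the gene or within 20000 bp that lay outside every promoter window, its own and those of other genes, 43 over the 12 libraries. Summed over the members, such peaks numbered 24, 16 and 21 in scramble, 7, 6 and 1 in CPT1a knockout, 6, 7 and 7 with acetate and 5, 8 and 5 in KAT2a knockout, and scramble lists also held the most peaks of all. In these sums, peaks within Birc2 that lay within 20000 bp of Birc3 count for both genes.

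Traf3 (ENSMUSG00000021277.16, chr12:111166370-111267153, plus strand), which with TRAF2 and the cIAPs holds NIK in check, ranked at 79.8 to 92.3 in scramble, 70.0 to 82.3 in CPT1a knockout, 73.2 to 86.4 with acetate and 71.3 to 88.6 in KAT2a knockout. The lowest library, CPT1a knockout replicate 1, was at 70.0. Differences from scramble were -8.40, -5.00 and -4.54 points in CPT1a knockout, the acetate group and KAT2a knockout, none past the test, and the widest interval reached -24.8. In scramble the summit lay 828 to 936 bp downstream of the start, and in the other groups 141 to 542 bp downstream.

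Traf6 (ENSMUSG00000027164.8, chr2:101678429-101701669, plus strand), the adaptor of interleukin-1 and Toll-like receptors, ranked at 55.8, 63.1 and 50.5 in scramble. It ranked at 20.2, 59.4 and 81.2 in CPT1a knockout, at 75.3, 74.3 and 86.2 with acetate, and at 82.6, 85.8 and 90.3 in KAT2a knockout. The acetate and KAT2a knockout libraries lay above scramble and the CPT1a knockout libraries lay on both sides. The difference of 29.8 in KAT2a knockout did not pass (SE 12.5, limma adjusted p = 0.191), nor did that of 22.2 with acetate (limma adjusted p = 0.315). CPT1a knockout replicate 1, which ranked lowest, had a local background of 5.00 fragments at the summit, against 0.554 to 2.52 in the other 11 libraries.

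Birc2 (ENSMUSG00000057367.12, chr9:7818227-7837064, minus strand) and Birc3 (ENSMUSG00000032000.17, chr9:7848699-7873186, minus strand) are neighbours on chromosome 9 and encode the ligases cIAP1 and cIAP2. Birc2 ranked at 44.0, 98.2 and 97.3 in scramble, at 84.4 to 93.7 in CPT1a knockout, at 76.3 to 90.3 with acetate and at 89.04 to 94.96 in KAT2a knockout. Scramble replicate 1 stood apart, and its local background at the Birc2 summit was 6 fragments against 1.871 and 2.00 in the other scramble libraries. Birc3 ranked at 4.57, 8.67 and 11.1 in scramble, at 25.0, 5.10 and 24.9 in CPT1a knockout, at 17.4, 12.8 and 12.3 with acetate and at 10.8, 18.6 and 17.4 in KAT2a knockout. It was the weakest promoter of the members in every group, and its peaks, 819 to 1899 bp, were short. No difference passed the test for either gene. The largest were 12.9 for Birc2 in KAT2a knockout (limma adjusted p = 0.544) and 10.2 for Birc3 in CPT1a knockout (limma adjusted p = 0.182). The latter was 19.9 with the GC trend removed (limma adjusted p = 0.0203) and 16.8 without CPT1a knockout replicate 2 (limma adjusted p = 0.0223), and passed in both.

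Whether acetate changed these promoters in CPT1a knockout cells was asked by comparing the 2 CPT1a knockout groups. By limma, 0 of 10 members were called by rank and 0 of 10 by length, and 0 of 10 reached an unadjusted p under 0.05 in either measure. Of all genes, 0.0464% were called by rank (5 of 10777) and 0% by length. The largest difference was 25.0 points for Traf6 (95% interval -1.69 to 51.7), whose rank was 53.6 ± 30.9 without and 78.6 ± 6.62 with acetate. For Tnfaip3 the difference was 3.25 (95% interval -24.0 to 30.5) and for Ikbkb -5.94 (-26.7 to 14.8). The interval of Tnfaip3 holds changes of over 20 points in either direction. Ranks of the 2 groups did not overlap for 0 of 10 members, against 14.2% of all genes.

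**Figure D4:**
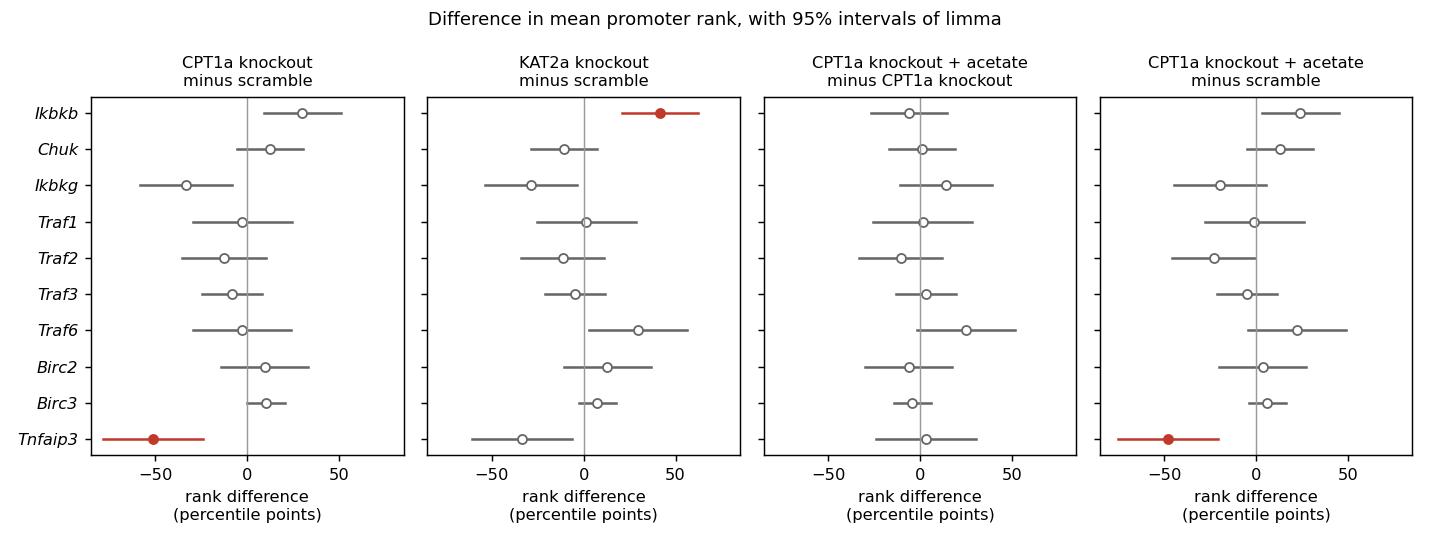
Difference in mean within-library rank (percentile points, horizontal axis) for the 10 genes in the 4 comparisons, with points for the estimate and lines for the 95% interval of limma; filled red points passed the test at an adjusted p under 0.05. The filled points are Tnfaip3 at -51.3 and -48.1 and Ikbkb at 41.7.

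The ranks of CPT1a knockout and scramble did not overlap for 4 members (Ikbkb and Chuk higher, Ikbkg and Tnfaip3 lower), against 30.9% of all genes. For KAT2a knockout these were 4 members (Ikbkb and Traf6 higher, Ikbkg and Tnfaip3 lower), against 29.3%, and for the acetate group against scramble 7 members, against 31.9%. In the latter comparison 1 of 10 members was called by rank, Tnfaip3, where 5.56% of all genes were called. The median rank difference of the members was -2.75, -1.59 and 1.16 points in CPT1a knockout, KAT2a knockout and the acetate group against scramble, and 0.22, 0.10 and 0.15 over all genes.

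Fold enrichment divides the pileup of fragments at the summit by the local background of the same library. Because that background differed between libraries at several members, ranks were also taken by pileup alone, a choice made after the values were seen. By this measure Tnfaip3 was lower by 45.0 points in CPT1a knockout (difference -45.0, limma adjusted p = 0.000219), and Ikbkb was higher by 33.1 (limma adjusted p = 0.000722). Traf6 ranked at 33.3, 42.2 and 37.5 in scramble and at 65.7, 71.3 and 61.2 in CPT1a knockout, and was higher by 28.4 (limma adjusted p = 0.00204), where its rank by fold enrichment had differed by -2.85. Birc2 ranked at 92.8, 93.0 and 94.2 in scramble and at 75.9, 79.7 and 81.4 in CPT1a knockout, and was lower by 14.4 (difference -14.4, limma adjusted p = 0.0150). In all, 7 of 10 members were called in CPT1a knockout, 5 in KAT2a knockout and 6 in the acetate group against scramble, where 46.9%, 38.8% and 39.5% of all genes were called. With acetate against CPT1a knockout 0 of 10 were called by limma, against 1.70% of all genes. Pileup is also shaped by broad differences in coverage that the local background removes. Its part in these differences was not tested.

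**Figure D5:**
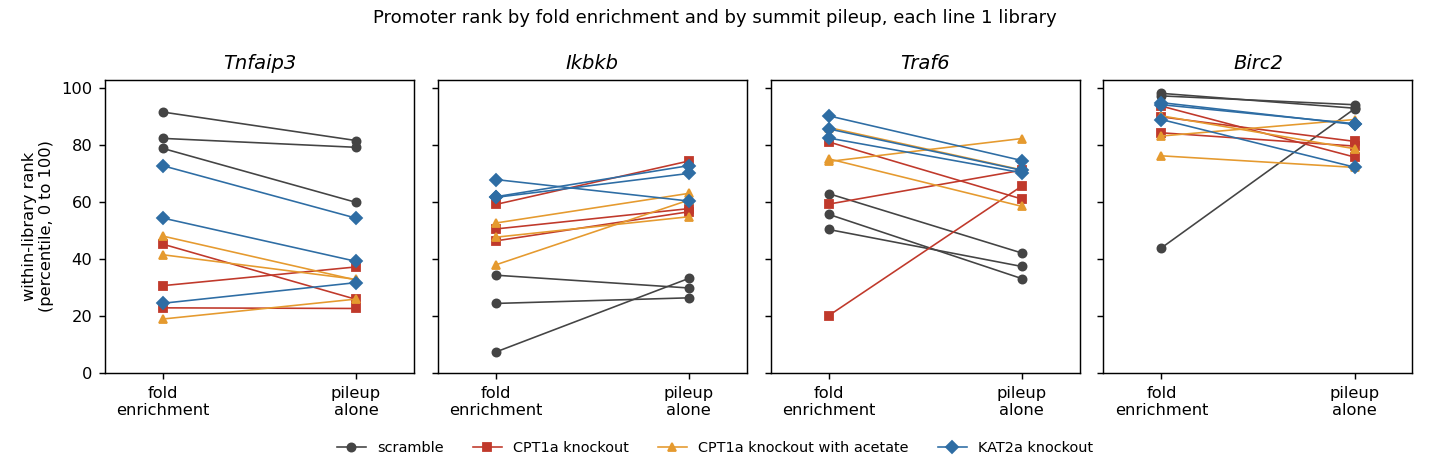
Within-library rank (percentile, vertical axis) of Tnfaip3, Ikbkb, Traf6 and Birc2 when promoters are ordered by fold enrichment or by summit pileup alone; each line joins the 2 ranks of 1 library. For Traf6 and Birc2 a single library moves most, CPT1a knockout replicate 1 from 20.2 to 65.7 and scramble replicate 1 from 44.0 to 92.8.

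Of 45 other genes of the pathway, 41 had a promoter peak in all 12 libraries. Cd40 and Tnfrsf11a, receptors of the TNF family, had a promoter peak in 8 of 12. In CPT1a knockout 6 of the 41 were called by rank, 3 higher and 3 lower, where 10.0% of all genes were called, with a median difference of 4.30 points. From scramble to CPT1a knockout, mean rank was higher for the kinase gene Ripk1 (18.3 to 44.3, adjusted p = 0.0196 by limma) and the death-domain adaptor gene Fadd (15.9 to 39.2, adjusted p = 0.0293 by limma), among 9 receptor adaptors and kinases. Among 8 tested receptors Tlr4, the receptor for lipopolysaccharide, was lower (46.5 to 16.1, adjusted p = 0.0205 by limma). Azi2, an adaptor of TBK1, was lower among 4 IKK-related genes (68.1 to 17.8, adjusted p = 0.0204 by limma). With acetate, Ripk1 ranked at 21.9, 15.4 and 21.3, Fadd at 19.7, 21.4 and 14.8, and Azi2 at 73.9, 49.9 and 72.5. Tlr4 ranked at 15.4, 11.9 and 34.9 with acetate.

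Of 7 negative regulators other than Tnfaip3, 1 was called higher and 1 lower by rank in CPT1a knockout, where 10.0% of all genes were called. The same counts held in KAT2a knockout, against 4.41% of all genes. Tnip1, which encodes a partner of A20, ranked at 48.7, 57.5 and 43.6 in scramble and at 11.3, 10.3 and 16.6 in CPT1a knockout (adjusted p = 0.00518 by limma), and at 23.3, 8.86 and 22.5 in KAT2a knockout (adjusted p = 0.0196 by limma). With acetate it ranked at 43.4, 37.2 and 29.8. Tnip2, which encodes another A20-binding protein, was higher in CPT1a knockout (18.2 to 61.9, adjusted p = 0.00652 by limma), and Tax1bp1, an A20 adaptor, was higher in KAT2a knockout (20.4 to 64.1, adjusted p = 0.0443 by limma). Tnip2 ranked at 22.2, 45.3 and 37.7 with acetate. In KAT2a knockout 2 of the 41 genes were called by rank, 1 in each direction, where 4.41% of all genes were called. With acetate against scramble, limma called 0 of 41, with 7 at an unadjusted p under 0.05, and with acetate against CPT1a knockout 0 of 41, with 10. The 5 genes of the linear ubiquitin ligase and E2 list, the 5 of the TAK1 and NIK list and the 3 tested CARD-BCL10-MALT1 genes gave 0 calls by rank with limma in the 4 comparisons. Their largest counts at an unadjusted p under 0.05 were 2, 3 and 2. By length, 7 of the 41 were called in CPT1a knockout (6 longer, 1 shorter), 7 in KAT2a knockout (4 longer, 3 shorter) and 5 in the acetate group against scramble (5 longer), where 21.2%, 16.8% and 17.3% of all genes were called.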

How the data were processed

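H3K9ac peak lists of 12 ChIPmentation libraries, 3 in each of 4 groups of 4T1 spheroids, were analysed. The 12 inputs were not analysed here. Per the labels, the authors used FastQC, Bowtie2, SAMtools, deepTools and MACS2 with the builds mm10 and dm6, whereas the study's methods name BWA. The labels give no versions. The deposited lists hold each peak's position and summit, fold enrichment, a ratio of pileup to local background, and the -log10 p and -log10 q of MACS2, in lists made per library. The deposited score column, which MACS2 derives from -log10 q, was not used. A spike-in was not applied here.

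Promoters lay within 1000 bp of a TSS of 21755 coding genes (GENCODE vM21). Fold enrichment of the strongest promoter peak was ranked within each library over 10777 genes, those whose promoter held a peak in every library. The summed length of promoter peaks was taken as log2 minus the library median. Both were fitted in limma 3.58.1 (R 4.3.3) with a trended, moderated variance, in 1 fit of 12 libraries with no covariate, and p-values were adjusted by Benjamini-Hochberg over the 10777 genes, with 0.05 as the threshold. Pileup and local background were recovered from fold enrichment and -log10 p. Peak lists carry no read counts, so the precision is that of 3 libraries per group. Scripts (Python 3.11.15) were tested on simulated data. Some genes of the marker and pathway lists are not reported here. The members and lists were chosen with earlier results of these data known. The genes named were the 10 members and, per list and comparison, the called genes with the largest rank difference, 2 at most. Replicate numbers did not pair the libraries. Peaks on chromosome Y, 11 to 45 per library, were set aside. Alternatives were other rankings (-log10 p, GC trend removed, equal calling depth, normal scores, pileup), windows, peak filters, a replicate block and leaving out each library. For equal calling depth, recovered pileup and background were rescaled to the lowest depth, 0.554. Peaks were not called again, but for the count of promoter calls those with a rescaled -log10 p under 5 were dropped.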

Additional observations from a re-analysis of the deposited data

How the results depend on the processing

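Of the members, the number called by rank in CPT1a knockout, 1, became 4 by -log10 p, 3 with GC removed, 2 at equal calling depth, 2 as normal scores, 7 by pileup and 4 by non-overlap. In KAT2a knockout, 1 became 4 by -log10 p, 5 by pileup and 4 by non-overlap. With acetate against scramble, 1 became 3 by -log10 p, 0 with GC removed by limma, 6 by pileup and 7 by non-overlap. By length, 1 became 6, 3 and 4 in these comparisons without centring, where the median of all genes shifted by -0.54, -0.32 and -0.38 on the log2 scale, and 3 and 2 in CPT1a and KAT2a knockout with peaks within 500 bp joined. Over all genes, rank calls in CPT1a knockout (1079) became 2004 at equal depth, 3438 by -log10 p, 5057 by pileup and 3326 by non-overlap. In KAT2a knockout (475) they became 1033, 2327, 4185 and 3160, and with acetate against scramble (599) 1172, 2550, 4261 and 3441. With GC removed they were 1021, 371 and 465 in these comparisons, and as normal scores 1138, 413 and 638. With acetate against CPT1a knockout (5) they were 2 at a -log10 q of at least 5, 2 with the summit required, 0 with GC removed, 0 as normal scores, 0 with the replicate block, 183 by pileup and 1526 by non-overlap. Uncentred length calls over all genes were 6758 in CPT1a knockout and 3624 with acetate against scramble, and with a 500 bp window 2 in place of 0 for acetate against CPT1a knockout.

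Among the members, signs turned in 6 values that were called after the change. By pileup these were Traf6 (28.4) and Birc2 (-14.4) in CPT1a knockout, Chuk (6.87) in KAT2a knockout and Birc2 (-13.3) with acetate against scramble. Without centring they were the lengths of Traf3 (-0.57) and Traf1 (-0.56) in CPT1a knockout. The lengths of Ikbkg (-0.31), Tnfaip3 (-0.47), Traf2 (-0.55) and Birc3 (-0.51) turned there too and were not called. Apart from Ikbkg, signs turned in 40 uncalled length values and 21 uncalled rank values under other settings. With a library left out these numbered 28 and 21. The cause was not tested.

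With each library left out, members called by rank numbered 0 to 2, 0 to 1, 0 to 0 and 0 to 1 in CPT1a knockout, KAT2a knockout, acetate against CPT1a knockout and acetate against scramble, and all genes 495 to 1125, 140 to 556, 0 to 17 and 151 to 725. By length members numbered 1 to 2, 0 to 2, 0 to 0 and 0 to 2, and all genes 1371 to 2409, 896 to 2038, 0 to 4 and 950 to 2197. Replicate numbers did not pair the libraries (same-number correlations of -0.0618 to 0.0673). With the replicate block the calls of Tnfaip3 and Ikbkb remained (limma adjusted p = 0.0249, 0.0365 and 0.0449), and all genes called by rank numbered 945, 338, 0 and 455, and by length 2109, 1652, 0 and 1697. Of all genes called by rank, 38.5% in KAT2a knockout and 29.9% with acetate against scramble were higher, against 49.5% and 50.3% by pileup.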
